A study of Mus musculus with 8 samples.

Results

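Lipg, Lpl, Apob, Mttp, Apoa2, Apoe, Vldlr, Cd36 and Fabp3 encode proteins that release, package and take up lipid, and their RNA was measured in the outflow tract and right ventricle of mouse embryos. These 9 genes were chosen by symbol from the 20701 gene symbols of the table, with results of the comparison between the groups already known, so the values that the comparison gives for them, calls and intervals included, are a description and support nothing. Of the 9, 8 passed the filter on low counts and entered the comparison, and Apob did not. The tissue was dissected from single C57BL/6 embryos at E10.5, with 4 embryos labelled wild type (CTRL) and 4 labelled as hypomorphs of the LIM-homeodomain factor Isl1 (Isl1_hypo). Both groups share stage and strain, and no Cre is named for either. The hypomorphic genotype is Isl1 f;neo/f;neo, homozygous for an allele that keeps part of the gene's expression. It is present in every cell of the embryo, so blood, epicardium and neighbouring tissue carry it as well as the heart muscle. Each library is 1 embryo.

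Lipoproteins carry triglyceride and cholesterol through the blood. Apob is the structural protein of the triglyceride-rich particles, and Mttp loads lipid onto it inside the cell. At the vessel wall Lpl splits triglyceride, and Lipg, the endothelial lipase, acts mainly on the phospholipid of high density lipoprotein, whose proteins include Apoa2. Apoe on the particles is a ligand for receptors such as Vldlr. The released fatty acids enter cells with the help of Cd36 and are bound in the cytosol of heart muscle by Fabp3. The adult heart draws much of its energy from fatty acids, whereas the embryonic heart relies more on glucose and lactate.

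Sequences of 4 start regions are shown because they bear on how the members were measured or on the members whose values differed most. Each is the RefSeq window from 250 bases before to 50 bases after an annotated start (table build GRCm38.p6), found once in the mm9 genome and given with that position. Windows of 7 of the 9 members were examined. No window of Lipg or Lpl was examined, so nothing is said here about the start regions of these genes. Capitals mark the TATA-type motif TATAAA, which occurred in 13.6% of all 32851 windows, or the nuclear receptor motif AGGTCA, which occurred in 16.3%, both on either strand. The Apob window held TATAAA 60 bases before the start, and the single Cd36 window held the latter, read as TGACCT, 228 bases before it. The main Apoa2 start had TATAAA 212 bases before it, and the start of the long Apoa2 transcript, on the same strand, had the nuclear receptor motif 238 bases before it. The HNF4-type motif CAAAGTCCA was in none of the windows of the 7 members and in 0.475% of all windows. Among windows not shown, one of Apoe held TATAAA 100 and 96 bases before its start. A Vldlr window held the homeodomain motif TAATTA, found in 5.29% of all windows, 142 bases before its start.
Apob, chr12:7984233-7984532, plus strand: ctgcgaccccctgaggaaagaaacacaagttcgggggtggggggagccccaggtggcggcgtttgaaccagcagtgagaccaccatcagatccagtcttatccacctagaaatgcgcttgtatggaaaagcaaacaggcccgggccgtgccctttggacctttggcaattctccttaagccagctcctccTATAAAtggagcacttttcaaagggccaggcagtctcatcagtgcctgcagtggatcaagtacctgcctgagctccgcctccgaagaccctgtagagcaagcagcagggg
Cd36, chr5:17341665-17341964, minus strand: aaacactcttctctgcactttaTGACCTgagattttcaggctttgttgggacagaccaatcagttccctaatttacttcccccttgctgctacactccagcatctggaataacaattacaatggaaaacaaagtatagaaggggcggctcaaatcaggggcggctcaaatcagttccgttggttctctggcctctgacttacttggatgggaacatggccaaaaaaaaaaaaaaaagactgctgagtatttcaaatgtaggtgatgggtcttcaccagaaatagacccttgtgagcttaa
Apoa2, main start, chr1:173154935-173155234, plus strand: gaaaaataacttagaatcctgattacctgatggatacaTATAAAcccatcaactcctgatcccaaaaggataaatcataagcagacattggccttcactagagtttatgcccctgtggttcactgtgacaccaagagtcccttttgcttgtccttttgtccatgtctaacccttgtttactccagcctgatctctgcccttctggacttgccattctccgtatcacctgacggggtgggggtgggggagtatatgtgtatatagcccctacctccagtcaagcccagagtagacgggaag
Apoa2, long transcript, chr1:173151445-173151744, plus strand: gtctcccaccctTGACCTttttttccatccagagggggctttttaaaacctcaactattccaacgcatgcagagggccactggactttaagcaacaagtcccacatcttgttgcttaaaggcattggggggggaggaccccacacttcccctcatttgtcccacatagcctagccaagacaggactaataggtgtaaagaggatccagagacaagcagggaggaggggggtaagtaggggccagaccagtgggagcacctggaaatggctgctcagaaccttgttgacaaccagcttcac

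The libraries held 30137910 to 76524331 counts over all transcripts, with a lower range in Isl1_hypo (30137910 to 53845448) than in CTRL (50031666 to 76524331). The targeted gene Isl1 (mm9, chromosome 13, 117088478 to 117099896, minus strand) was at 29.6 to 61.5 CPM (counts over the TMM-scaled library size, with 1 transcript kept per symbol) in CTRL and at 6.86 to 12.7 CPM in Isl1_hypo, a log2 fold change of -2.29 (SE 0.256). The 8 markers of heart muscle summed to 40087 to 52657 CPM in the 8 libraries, so heart muscle was present in each. On the first principal component of the 1000 most variable genes Isl1_hypo replicate 3 stood at 72.0 and the other 7 libraries between -17.7 and 3.97. Isl1_hypo replicate 1 held the highest summed level of epithelial markers, 390.2 CPM against 179.4 to 325.2 CPM in the other Isl1_hypo libraries and 96.0 to 174.0 CPM in CTRL. RNA of Y-linked genes was present in 1 CTRL embryo (replicate 3) and in 3 Isl1_hypo embryos (replicates 1, 3 and 4).

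Over all 13769 genes tested, 37 had an adjusted p under 0.05 (0.269%; edgeR quasi-likelihood test), 20 of them higher in Isl1_hypo (0.145%) and 17 lower (0.123%). Among the 8 members tested, 2 were past this threshold, Lipg and Cd36, both higher in Isl1_hypo, and 0 were lower. The same 2 were the members whose groups did not overlap in CPM, beside 4.06% of all tested genes with every Isl1_hypo library higher and 4.44% with every one lower. Because the members were chosen on this contrast, nothing is read from that share. The median log2 fold change of the 8 was 0.17, beside 0.01 over all tested genes.

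**Figure D1:**
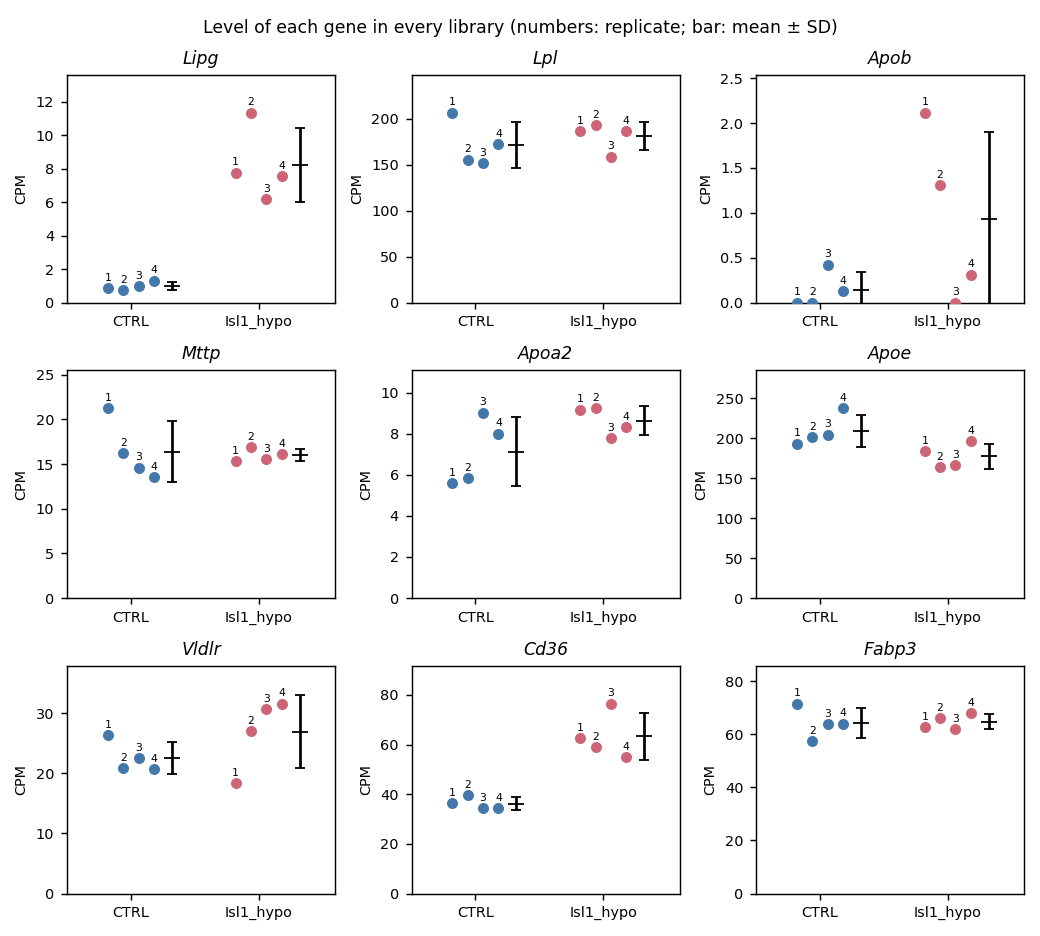
Level of the 9 genes in CPM (vertical axes, each starting at 0) in the 4 CTRL and 4 Isl1_hypo libraries, with the replicate number above each point and the mean ± SD at the right of each group; the lower SD bar of Apob is cut off at 0. Lipg and Cd36 are the genes whose groups do not overlap, with Lipg at 0.738 to 1.30 CPM in CTRL and 6.20 to 11.4 CPM in Isl1_hypo.

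The lipases were examined first. Lipg (mm9, chromosome 18, 75098976 to 75120917, minus strand) was at 0.864, 0.738, 0.993 and 1.30 CPM across the CTRL replicates and at 7.77, 11.4, 6.20 and 7.58 CPM across the Isl1_hypo replicates, each in the order 1 to 4. Every Isl1_hypo embryo was therefore above every CTRL embryo, and the lowest Isl1_hypo value was several times the highest CTRL value. The counts behind these levels were 27, 30, 40 and 61 in CTRL and 143, 303, 196 and 219 in Isl1_hypo, although the Isl1_hypo libraries were on the whole shallower. The mean was 0.975 ± 0.243 CPM in CTRL and 8.22 ± 2.20 CPM in Isl1_hypo (SD, n = 4), which gave a log2 fold change of 3.07 (SE 0.307, 95% interval 2.39 to 3.74). Leaving out any single library gave log2 fold changes of 2.87 to 3.24, and leaving out Isl1_hypo replicates 1 and 3 together gave 3.27. The spread within each group was similar in proportion, with coefficients of variation of 24.9% in CTRL and 26.8% in Isl1_hypo.

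Lpl (chromosome 8, 71404390 to 71431347, plus strand), the lipase that acts on triglyceride-rich particles, showed no such difference. It was at 206.8, 155.6, 151.8 and 172.2 CPM in CTRL and at 186.7, 192.7, 158.8 and 186.6 CPM in Isl1_hypo. The groups overlapped, with the highest and the lowest value both in CTRL. The log2 fold change was 0.08 (SE 0.119), with a 95% interval of -0.18 to 0.34.

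Apob (chromosome 12, 7984454 to 8023641, plus strand) was the rarest of the 9 genes per transcript length. In the same order its counts were 0, 0, 17 and 6 in CTRL and 39, 35, 0 and 9 in Isl1_hypo, too few to pass the filter. In CPM these were 0, 0, 0.422 and 0.128 in CTRL and 2.12, 1.31, 0 and 0.311 in Isl1_hypo. Isl1_hypo replicates 1 and 2 were above every other library, but replicate 3 had no count and replicate 4 lay within the CTRL range, so the groups overlapped. A count of 0 allowed levels up to 0.0960 and 0.0738 CPM in CTRL replicates 1 and 2 and up to 0.0948 CPM in Isl1_hypo replicate 3 (3 counts in each library). The mean was 0.138 ± 0.199 CPM in CTRL and 0.935 ± 0.967 CPM in Isl1_hypo (SD, n = 4), a difference of 0.798 CPM. That difference was 0.403 CPM without Isl1_hypo replicate 1, the epithelial-rich library, and 1.11 CPM without Isl1_hypo replicate 3. In a fit without the filter the estimate on the log2 scale was 2.70 (SE 1.47). The limits given for a count of 0 cover counting error only and leave out variation between embryos, and the reads carry no molecular identifiers.

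Genes of liver and yolk sac, where Apob is abundant, were present in part. Of the defining plasma proteins, Fgb, Fgg and Ahsg had 0 counts in all 8 libraries, Alb had at most 1 count and Afp at most 12. Amn and Cubn, which together form an uptake receptor of yolk sac and kidney, and the carriers Rbp4 and Ttr were counted in every library. Amn was at 2.57 ± 0.646 CPM in CTRL and 4.39 ± 0.450 CPM in Isl1_hypo (SD, n = 4), without overlap and with an adjusted p of 0.322. The whole list of 11 genes summed to 20.5 to 37.9 CPM in CTRL and 31.5 to 55.4 CPM in Isl1_hypo, most of it from Trf, which other tissues also express. Of the 5 list members tested, 4 were higher and 1 lower in Isl1_hypo, and 0 passed the threshold by edgeR or DESeq2, with 1 (Amn) at an unadjusted p under 0.05. Their part in the level of Apob was not tested.

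Mttp (chromosome 3, 137752819 to 137806352, minus strand), the transfer protein that lipidates Apob, was at 21.3, 16.2, 14.6 and 13.5 CPM in CTRL and at 15.4, 16.9, 15.6 and 16.2 CPM in Isl1_hypo. The Isl1_hypo embryos lay within the CTRL range, and their spread was the narrowest of the 9 genes (coefficient of variation 4.22%, against 20.9% in CTRL). The log2 fold change was -0.04 (SE 0.167, 95% interval -0.40 to 0.33).

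Apoa2 (chromosome 1, 173155185 to 173156510, plus strand) has 5 annotated transcripts in the table, and they did not count the same reads. The transcript kept here, the long one of 859 bases, was at 5.60, 5.83, 9.04 and 8.02 CPM in CTRL and at 9.18, 9.26, 7.78 and 8.34 CPM in Isl1_hypo, with overlapping groups and a log2 fold change of 0.28 (SE 0.212) that was 0.17 without CTRL replicate 1. The other 4 transcripts, of 382 to 515 bases, held between 0 and 12 counts a library, with 12 reached in CTRL replicate 4, while the long transcript held 169 to 375. The start of the long transcript (chromosome 1, position 173151695) lies 950 bases inside Tomm40l, a gene of a mitochondrial import channel on the opposite strand (173147933 to 173152645), and all 300 bases of the window printed for it lie in Tomm40l exons. Reads were counted without regard to strand. Tomm40l held 1941 to 5782 counts a library, and the counts of the long Apoa2 transcript were 5.89% to 7.92% of these in CTRL and 7.44% to 8.71% in Isl1_hypo. From these counts, reads of Apoa2 and of Tomm40l in the shared exon cannot be told apart, and the transcripts that start at the main Apoa2 start were at or near 0.

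**Figure D2:**
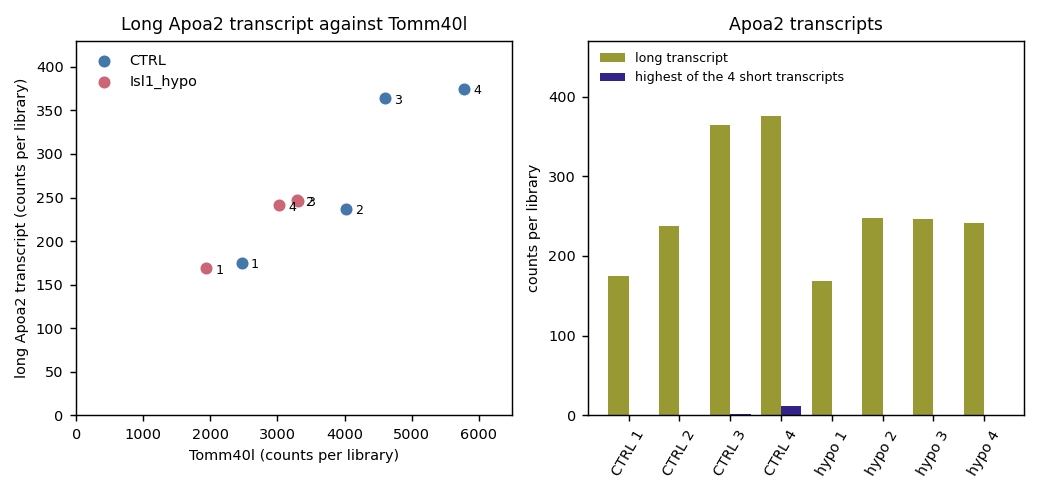
Left, counts of the long Apoa2 transcript (vertical axis) against counts of Tomm40l (horizontal axis) in each library, with replicate numbers; right, counts per library of the long Apoa2 transcript and of the highest of its 4 short transcripts. The long transcript held 169 to 375 counts, while no short transcript held more than 12. Raw counts also follow library depth. On log2 CPM the Pearson correlation of the long transcript with Tomm40l was 0.79 over the 8 libraries.

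Apoe (chromosome 7, 20281458 to 20284515, minus strand), the receptor ligand on lipoprotein particles and a product of macrophages among other cells, was the most abundant of the 9 genes per transcript length. It was at 193.3, 201.2, 204.7 and 238.0 CPM in CTRL and at 184.5, 163.8, 166.0 and 196.2 CPM in Isl1_hypo. Isl1_hypo replicate 4 was above CTRL replicate 1, and the other Isl1_hypo embryos were below all CTRL embryos. The log2 fold change was -0.24 (SE 0.105, 95% interval -0.47 to -0.01), which was not past the threshold. Macrophage markers were low in both groups, summing to 12.0 to 27.6 CPM in CTRL and 3.60 to 20.9 CPM in Isl1_hypo; 7 of 8 were tested and 6 of these were lower, 0 past the threshold by edgeR or DESeq2 and 0 at an unadjusted p under 0.05. Their part in the level of Apoe was not tested.

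Among the genes of uptake, Vldlr (chromosome 19, 27290974 to 27328721, plus strand), a receptor for Apoe-bearing particles, was at 26.3, 20.8, 22.5 and 20.7 CPM in CTRL and at 18.3, 27.1, 30.7 and 31.6 CPM in Isl1_hypo. Isl1_hypo replicate 1 was the lowest of all 8 libraries and the other 3 were the highest. The log2 fold change was 0.26 (SE 0.178, 95% interval -0.14 to 0.65) and lay between 0.17 (without Isl1_hypo replicate 4) and 0.40 (without replicate 1) when a library was left out.

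Cd36 (chromosome 5, 17287508 to 17394777, minus strand), the fatty acid translocase of heart muscle, capillaries and macrophages that is also found on red cell precursors, was at 36.3, 39.7, 34.4 and 34.5 CPM in CTRL and at 62.6, 59.1, 76.5 and 54.9 CPM in Isl1_hypo. The groups did not overlap, and the CTRL embryos differed little among themselves (coefficient of variation 6.83%). The mean was 36.2 ± 2.48 CPM in CTRL and 63.2 ± 9.36 CPM in Isl1_hypo (SD, n = 4), a ratio of 1.74 and a log2 fold change of 0.80 (SE 0.130, 95% interval 0.52 to 1.09). Its 5 transcripts counted nearly the same reads, with at most 1.03 times between the highest and the lowest in any library. The size held between 0.70 and 0.86 when a library was left out, but the adjusted p stayed under 0.05 only in the fit without Isl1_hypo replicate 3. Without Isl1_hypo replicates 1 and 3 together the log2 fold change was 0.65.

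Fabp3 (chromosome 4, 129985839 to 129992707, plus strand), the fatty acid binding protein of heart muscle, was at 71.6, 57.4, 63.9 and 64.0 CPM in CTRL and at 62.7, 66.1, 62.1 and 68.1 CPM in Isl1_hypo. The Isl1_hypo embryos again lay within the CTRL range. The log2 fold change was 0.01 (SE 0.106, 95% interval -0.22 to 0.24).

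Levels of different genes were compared per transcript length, in the RPKM values of the deposited table (reads scaled by transcript length and library total). In CTRL the order was Apoe (96.0 RPKM), Fabp3 (62.1), Lpl (26.1), Cd36 (6.26), Apoa2 (5.07, with the limit given above), Mttp (2.37), Vldlr (1.67), Lipg (0.158) and Apob (0.00601). Among neighbours in that order, Cd36 and Apoa2 overlapped, as did Mttp and Vldlr, while the others did not. In Isl1_hypo the order was the same, with Cd36 at 10.7, Vldlr at 1.95 and Lipg at 1.31 RPKM. There Cd36 (9.35 to 12.7) no longer overlapped Apoa2 (5.32 to 6.53), Mttp (2.15 to 2.40) overlapped Vldlr (1.35 to 2.31), and so did Lipg (0.964 to 1.82). Even in Isl1_hypo, Lipg remained below Lpl (27.1 RPKM) in level per length.

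**Figure D3:**
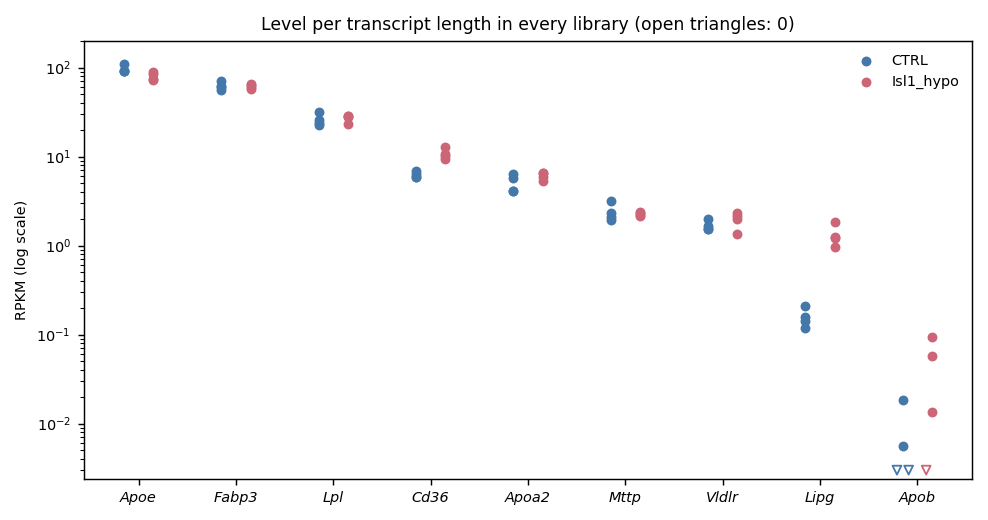
RPKM of each gene (vertical axis, log scale) in every CTRL and Isl1_hypo library, genes in order of the CTRL mean, with open triangles at the lower edge for libraries at 0. Lipg lies at 0.120 to 0.211 RPKM in CTRL and 0.964 to 1.82 RPKM in Isl1_hypo, and 3 Apob libraries are at 0.

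Several lists of marker genes moved with the groups and are given beside Lipg and Cd36. The 9 erythroid genes summed to 1924, 2545, 4453 and 11244 CPM in CTRL and to 17741, 11261, 23363 and 14476 CPM in Isl1_hypo. All 9 were higher in Isl1_hypo, 9 at an unadjusted p under 0.05 and 1, the red cell membrane gene Epb42, past the adjusted threshold (3 by DESeq2). The summed level had an exact 2-sided permutation p of 0.0286, the smallest that 4 against 4 libraries can give, and 0.0667 after adjustment over the 7 marker lists.

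The 6 epicardial genes summed to 54.2, 219.3, 202.7 and 341.5 CPM in CTRL and to 417.9, 464.0, 705.8 and 413.4 CPM in Isl1_hypo. All 6 were higher, 5 at an unadjusted p under 0.05 and 0 past the threshold (2 by DESeq2), with the same exact permutation p of 0.0286 and 0.0667 adjusted. When the erythroid level entered the fit as a covariate, Lipg had a log2 fold change of 2.85 and Cd36 one of 0.79, and with the epicardial level 2.93 and 0.74. Neither gene was past the threshold in these fits, in which 0 and 1 of all tested genes were called and 537 and 775 had an unadjusted p under 0.05.

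The summed level of the 8 epithelial genes did not overlap between the groups either (exact permutation p = 0.0286, adjusted 0.0667). Of these, 5 were tested and all 5 were higher, 4 at an unadjusted p under 0.05 and 0 past the threshold (2 by DESeq2). Most of the sum came from the keratins Krt8, Krt18 and Krt19. Cdh1, Cldn6 and Esrp1 were at 15.3, 38.5 and 6.03 CPM in Isl1_hypo replicate 1. In the other Isl1_hypo libraries they were at most at 0.311, 0.104 and 0.253 CPM. The part of epithelium in the members was not tested. The 8 endothelial genes, of the cell type after which Lipg is named, summed to 733.3 to 864.2 CPM in CTRL and 612.3 to 791.3 CPM in Isl1_hypo. Of these 3 were higher and 5 lower, 0 past the threshold (1, Pecam1, by DESeq2) and 2 at an unadjusted p under 0.05, and the summed level overlapped (exact permutation p = 0.171). Of the 8 heart muscle markers, the peptide hormone gene Nppa rose (312.8 ± 59.5 CPM in CTRL and 686.3 ± 132.6 CPM in Isl1_hypo, adjusted p 0.0303), and Myh7 had a log2 fold change of -0.49 without overlap (adjusted p 0.165). DESeq2 called both, and 2 of the 8 were lower at an unadjusted p under 0.05, Myh7 and Myh6 (-0.31). The summed level of the 8 overlapped between the groups (exact permutation p = 0.543). The embryos with Y-linked RNA were unevenly spread, and when that level entered the fit Lipg had a log2 fold change of 3.26 and stayed past the threshold, while Cd36 had one of 0.79 and did not. The part of blood, epicardium, sex or the makeup of heart muscle in either gene was not tested beyond these fits. In whole tissue more cells of a type and more RNA per cell cannot be told apart.

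**Figure D4:**
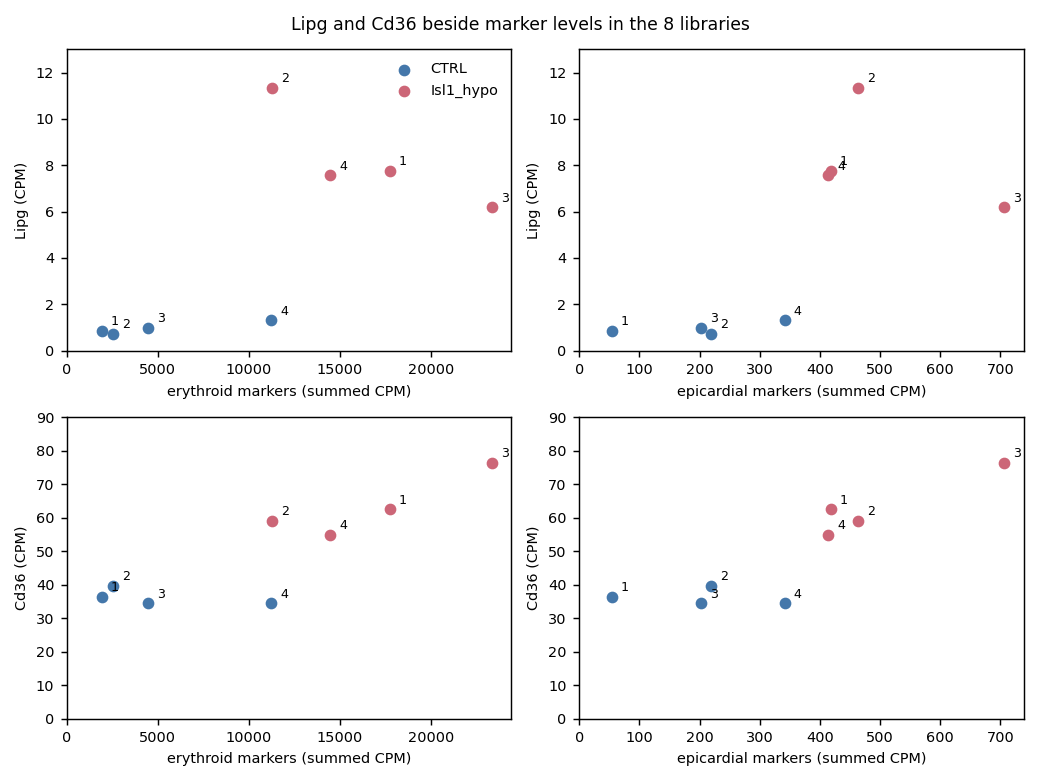
Lipg (upper panels) and Cd36 (lower panels) in CPM against the summed CPM of 9 erythroid markers (left) and 6 epicardial markers (right) in the 8 libraries, labelled by replicate. Both genes and both marker levels are higher in every Isl1_hypo library than in every CTRL library, the erythroid level narrowly so (11244 CPM in CTRL replicate 4 and 11261 CPM in Isl1_hypo replicate 2).

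To place the members among the rest of the lipid pathway, 6 lists of other genes chosen by role were compared. Of 83 genes, 67 were tested; the other 16 never exceeded 22 counts in a library. None of the 67 was past the threshold by edgeR, against 0.269% of all genes, and 10 had an unadjusted p under 0.05 (14.9%, beside 11.9% of all tested genes), 3 higher and 7 lower. By DESeq2, which called 2.32% of all genes with an adjusted p, 2 of the 67 were called, Fabp4 and Acsl1, both lower. In all, 29 were higher and 38 lower, with a median log2 fold change of -0.03, and 2 lay wholly above and 3 wholly below the CTRL range, beside 4.06% and 4.44% of all tested genes. The tested genes named below are, apart from Fabp4, among those with the largest differences in each list at a mean of at least 5 CPM, and none of them was past the edgeR threshold.

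Of 16 partners and relatives of the lipases, 9 were tested, 5 higher and 4 lower with a median of 0.08. Lmf2, of the lipase maturation factor family, was at 67.4 ± 7.81 CPM in CTRL and 52.4 ± 6.25 CPM in Isl1_hypo (SD, n = 4), giving a log2 fold change of -0.36 with SE 0.130 (adjusted p 0.304). Mgll, which splits monoglycerides, had a log2 fold change of -0.28 (SE 0.287), which was -0.07 without Isl1_hypo replicate 2 and -0.43 without replicate 4. Gpihbp1, which anchors Lpl on capillaries, and Apoc2, the activator of Lpl, were among the 7 genes that did not pass the filter, with at most 8 and 14 counts in a library.

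Of 14 genes of lipoprotein assembly and remodelling, 9 were tested, 3 higher and 6 lower with a median of -0.11. Abca1, which exports cholesterol to lipid-poor particles, was at 10.49, 22.0, 17.3 and 22.6 CPM in CTRL and at 14.8, 10.2, 7.71 and 8.34 CPM in Isl1_hypo, a log2 fold change of -0.83 with SE 0.272 (adjusted p 0.286). CTRL replicate 1 lay among the Isl1_hypo values. Pltp, which transfers phospholipid between particles, had a log2 fold change of 0.25 (SE 0.193), which was 0.06 without Isl1_hypo replicate 1.

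All 11 lipoprotein receptors and their regulators were tested, 3 higher and 8 lower with a median of -0.05. Lrp1, a large receptor for Apoe-bearing remnants, was at 110.3, 108.2, 103.1 and 129.6 CPM in CTRL and at 80.2, 90.3, 39.2 and 78.7 CPM in Isl1_hypo. The groups did not overlap, the log2 fold change was -0.65 (SE 0.211) and the adjusted p was 0.283. The lowest Lrp1 value was that of Isl1_hypo replicate 3.

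For uptake of fatty acids, 14 of 15 genes were tested, 7 higher and 7 lower with a median of -0.05. Acsl1, which activates fatty acids to their CoA esters, was at 59.5, 60.6, 57.1 and 56.3 CPM in CTRL and at 44.5, 42.3, 46.4 and 46.7 CPM in Isl1_hypo. The groups did not overlap, and the log2 fold change was -0.38 (SE 0.102), with an adjusted p of 0.195 by edgeR and 0.0208 by DESeq2. The transporter Slc27a1 had a log2 fold change of -0.58 with SE 0.265 (adjusted p 0.418), and one of -0.35 without Isl1_hypo replicate 3. Fabp4, the binding protein of fat cells and capillaries, is given because DESeq2 called it and was chosen after its values were seen. It was at 3.81, 1.72, 2.53 and 2.82 CPM in CTRL and at 0.272, 0.562, 0.0632 and 0.969 CPM in Isl1_hypo, a log2 fold change of -2.52 with SE 0.663 (adjusted p 0.181 by edgeR).

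Of 16 genes of fatty acid oxidation and storage, 14 were tested, 8 higher and 6 lower with a median of 0.05. The mitochondrial thiolase Acaa2 was at 221.4, 259.8, 258.2 and 250.04 CPM in CTRL and at 278.8, 290.7, 328.0 and 313.6 CPM in Isl1_hypo, without overlap, a log2 fold change of 0.29 with SE 0.098 (adjusted p 0.295). Hadhb, a subunit of the trifunctional protein of beta oxidation, had a log2 fold change of 0.30 with SE 0.127 (adjusted p 0.390), and one of 0.19 without Isl1_hypo replicate 3. Of 11 lipid regulators, 10 were tested, 3 higher and 7 lower with a median of -0.03. The sterol regulators Srebf2 (-0.27, SE 0.243) and Srebf1 (-0.26, SE 0.165) had the largest log2 fold changes of that list among genes at 5 CPM or more, and without Isl1_hypo replicate 3, the library apart on the first principal component, they were -0.05 and -0.12. Hnf4a, a regulator of Apob and Mttp in liver, had 0 counts in all 8 libraries.

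**Figure D5:**
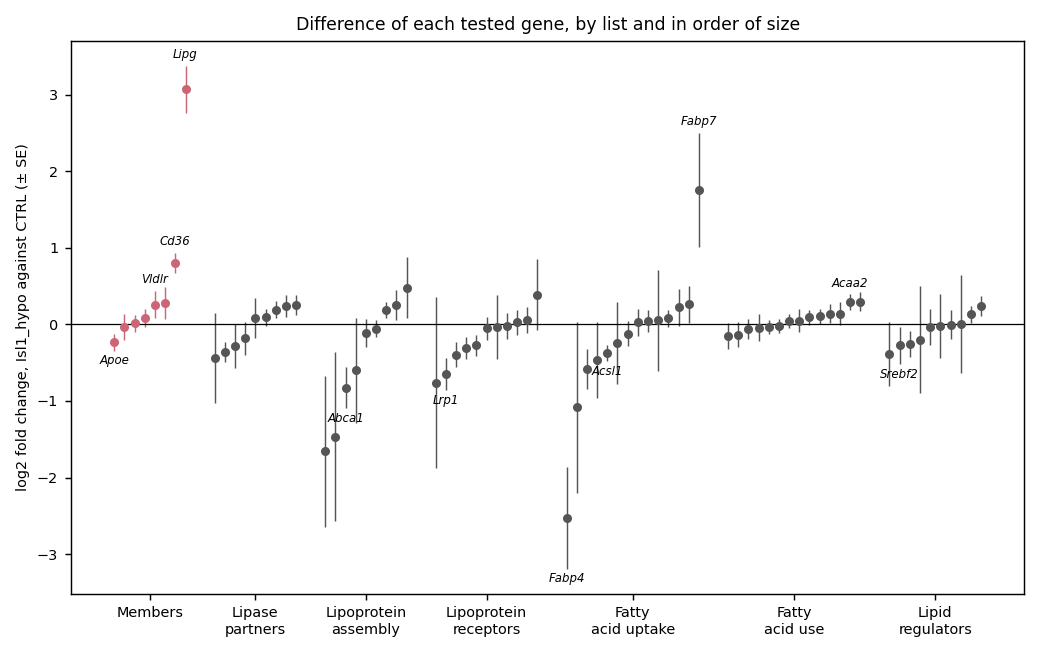
Log2 fold change of Isl1_hypo against CTRL with its SE (vertical axis) for the 8 tested members and the 67 tested genes of the 6 lists, each list in order of size, with some genes named. Lipg (3.07) and Cd36 (0.80) lie above the other members, and Fabp4 (-2.52) is the lowest gene of the lists.

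The genes whose level over the 8 libraries ran most like that of Lipg were Myoz2 (r = 0.98), Hsd3b6 (0.97), Zfp277 (0.97), Art1 (0.96) and Ntf3 (0.95), as Pearson correlations of log2 CPM among 10744 genes with a mean of at least 5 CPM. Among the members, Cd36 (0.88) was nearest to Lipg, then Apoa2 (0.66) and Apob (0.60), and Apoe ran opposite (-0.68). For Apob the nearest genes were Tspyl3 (0.97), Leprotl1 (0.96), Spg20 (0.95), Sin3b (0.94) and Gars (0.94), and among the members Apoa2 (0.83) and Lipg (0.60). These values describe 8 libraries that share the same group difference, and the Apob values rest on libraries with 0 to 39 counts. The Apoa2 values are those of the long transcript, whose reads cannot be told apart from those of Tomm40l in the shared exon.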

How the data were processed

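Polyadenylated RNA from 4 CTRL and 4 Isl1_hypo embryos was sequenced on BGISEQ-500. The authors aligned reads with STAR to mm9 and counted exon reads per RefSeq transcript with HOMER on both strands, and the deposited counts are whole numbers without normalization. From those counts the authors derived the deposited RPKM with edgeR. The deposited comparison of the authors (DESeq2) holds a mean signal, a log2 fold change with its error, a Wald score and p-values per transcript, and was not used here.

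Where a symbol had several transcripts, that of the highest mean count was used. Genes were filtered with filterByExpr, scaled by TMM and tested by quasi-likelihood F in edgeR 4.0.16 (R 4.3.3), with Benjamini-Hochberg adjustment over all 13769 genes tested and no covariates; CPM are TMM-scaled, and the SE is the log2 fold change divided by the square root of F. The script was tested on simulated data. Summed marker CPM were compared on the log2 scale with an exact 2-sided permutation test over 70 assignments. Alternatives were RLE scaling, DESeq2 1.42.0, other filters, the longest transcript, a replicate block, leaving out libraries and, chosen after seeing the data, marker levels as covariates and removal of Isl1_hypo replicates 1 and 3. Members and lists were chosen with earlier results of these data known. All members are named, and of each list the genes past the threshold, or else the 2 with the largest absolute log2 fold change at a mean of at least 5 CPM; some genes are not reported here. Gene positions are from GENCODE M1 on mm9.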

Additional observations from a re-analysis of the deposited data

Results flagged for a closer look

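Among 58 groups of 4 libraries examined for a library far from the others, 3 had one, where chance alone gives about 1 in 20. Slc27a1, a fatty acid transporter, was at 11.1 CPM in CTRL replicate 2 and at 13.9 to 14.4 CPM in the other CTRL embryos. The liver and yolk sac list summed to 55.4 CPM in Isl1_hypo replicate 3 against 31.5 to 34.6 CPM in the other Isl1_hypo embryos. The epithelial list summed to 96.0 CPM in CTRL replicate 1 against 167.1 to 174.0 CPM in the other CTRL embryos. No member was among them.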

How the results depend on the processing

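Neither Lipg nor Cd36 changed direction under any alternative, while Mttp and Fabp3, which were not called, took both signs when a library was left out (log2 fold changes of -0.12 to 0.11 and of -0.04 to 0.06); with the erythroid level as a covariate Mttp (0.40), Apoa2 (-0.05) and Pltp (-0.03) also changed sign, Mttp likewise with the epicardial level (0.33) and the Y-linked level (0.07) and without Isl1_hypo replicates 1 and 3 (0.01), none of them called. Of the 2 members called, 2 were called with RLE scaling, DESeq2, both other filters and the longest transcript. With the replicate number as a block the calls were 0 of the members and 0 of all genes by edgeR (1582 at an unadjusted p under 0.05), and Lipg had a log2 fold change of 3.06 with an adjusted p of 0.0512; same-numbered libraries did not deviate together (correlations of -0.02 to 0.02), so the number is not taken as a pairing. Leaving out 1 library gave 1 to 2 members called, with Lipg called in all 8 fits, and 4 to 48 of all genes (8, 5 and 4 without CTRL replicates 1, 2 and 3, and 12 and 11 without Isl1_hypo replicates 2 and 4). DESeq2 called 319 genes and 2 genes of the pathway lists. Covariates chosen after seeing the data gave 0 calls over the table and 0 members with the erythroid level (Lipg 2.85), 1 and 0 with the epicardial level (Lipg 2.93), and 2 and 1 with the Y-linked level, and without Isl1_hypo replicates 1 and 3 the count of members called was 1. The cause of these changes was not tested. Apob had 0 counts in 3 libraries, 2 of them in CTRL, and the library with the most Apob counts was the shallowest. Replicates are single embryos.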
